A study of Mus musculus with 14 samples.

Results

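The 35 genes described here carry out or control the making of fatty acids and triglyceride and the upkeep of lipid droplets in the liver. They were taken by gene name from a table of 57180 genes, and 34 of the 35 had enough counts to be tested among 16201 genes that did. The livers came from littermate mice kept on normal chow, which the labels class by Pkd1 genotype as Homo (4 livers), Het (4 livers) and WT (6 livers), and RNA was sequenced from each liver apart. All 3 genotypes carry Cre in their label. The labels name no Pkd1 allele, no Cre driver, and no sex, age, litter, feeding state or collection time. The series title concerns Pkd1 mutant clones and steatohepatitis, and the chow livers here address how the genotype stands without a fatty diet. Estimated counts per gene are given as CPM (counts scaled to a common library size with TMM factors), and each value belongs to 1 liver.

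Liver makes fat from sugar by a fixed chain of steps. Citrate leaves the mitochondrion through Slc25a1 and is split by Acly to give acetyl-CoA, which the acetyl-CoA carboxylases Acaca and Acacb turn into malonyl-CoA and fatty acid synthase, Fasn, builds into palmitate. Elovl6 lengthens palmitate and Scd1 sets the first double bond, after which Gpam, Agpat2, the lipins and the Dgat enzymes load the chains onto glycerol. Insulin drives the chain through Srebf1 (SREBP-1c), glucose through Mlxipl (ChREBP), and the oxysterol receptor Nr1h3 (LXR alpha) raises Srebf1. The finished fat is stored in droplets, which Plin5 and the CIDE proteins coat or enlarge and Pnpla2 (ATGL) with its activator Abhd5 breaks down.

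Acly, Elovl6 and Mid1ip1 had the highest correlations with Fasn over the livers among the measured members, as described further on, and these 4 promoters are shown for that reason. Each line runs 5′ to 3′ along the gene's own strand, from 250 bases before to 50 after the start (RefSeq, build GRCm38.p6). Capitals mark matches on either strand to 4 motifs, the sterol element TCACNCCAC, the E-box CACGTG, the CCAAT box CCAAT and the GC box GGGCGG. The windows are chr11:120824498-120824797 (minus strand) for Fasn, chr11:100527951-100528250 (minus strand) for Acly, chr3:129532136-129532435 (plus strand) for Elovl6 and chrX:10717115-10717414 (plus strand) for Mid1ip1.
Fasn: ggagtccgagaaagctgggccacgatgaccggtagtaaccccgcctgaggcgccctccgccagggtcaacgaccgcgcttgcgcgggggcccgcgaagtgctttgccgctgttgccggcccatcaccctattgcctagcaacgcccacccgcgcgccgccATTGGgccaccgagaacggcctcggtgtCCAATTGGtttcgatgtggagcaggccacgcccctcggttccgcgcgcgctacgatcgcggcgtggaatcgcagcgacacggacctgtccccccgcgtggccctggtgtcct
Acly: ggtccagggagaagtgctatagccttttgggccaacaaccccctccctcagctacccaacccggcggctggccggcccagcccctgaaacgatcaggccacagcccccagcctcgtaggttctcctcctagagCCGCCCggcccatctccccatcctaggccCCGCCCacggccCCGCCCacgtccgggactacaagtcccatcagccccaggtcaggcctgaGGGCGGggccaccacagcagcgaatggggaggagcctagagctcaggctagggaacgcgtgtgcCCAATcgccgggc
Elovl6: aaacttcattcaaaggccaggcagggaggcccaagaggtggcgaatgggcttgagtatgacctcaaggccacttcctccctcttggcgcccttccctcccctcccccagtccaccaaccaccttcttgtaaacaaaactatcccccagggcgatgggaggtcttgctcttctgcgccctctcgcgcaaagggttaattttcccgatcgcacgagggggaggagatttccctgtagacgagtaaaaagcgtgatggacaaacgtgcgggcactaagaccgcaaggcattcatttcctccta
Mid1ip1: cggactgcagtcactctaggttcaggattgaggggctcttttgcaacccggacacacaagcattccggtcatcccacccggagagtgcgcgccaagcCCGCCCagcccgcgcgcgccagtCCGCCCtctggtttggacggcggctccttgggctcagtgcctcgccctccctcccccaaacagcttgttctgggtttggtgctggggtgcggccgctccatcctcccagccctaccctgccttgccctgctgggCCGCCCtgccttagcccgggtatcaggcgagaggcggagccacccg
Fasn held 3 CCAAT boxes, whose first letters lie at -90, -62 and -59 with the start base as 0, and the last 2 overlap, 1 on each strand. Acly held 4 GC boxes and 1 CCAAT box, Mid1ip1 held 3 GC boxes, and Elovl6 held none of the 4 motifs. Of the 35 genes, 29 had a promoter in the RefSeq table, with 42 windows in all. CCAAT lay in 17 of those windows, against 37.4% of all 32851 windows, and GGGCGG in 22, against 35.7%. CACGTG lay in 4 (7.15% of all windows) and TCACNCCAC in 1 (1.24% of all windows). That 1 was chr5:135106641-135106940 of Mlxipl, whose other window, chr5:135089640-135089939, held no TCACNCCAC.

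Pkd1 itself had 23.1, 26.2, 25.5 and 26.4 CPM in the Homo livers, 28.1 to 36.7 CPM in the Het livers and 31.4 to 37.7 CPM in the WT livers, and the Homo livers lay below every WT liver. Its log2 fold change was -0.46 ± 0.08 (SE; edgeR quasi-likelihood test, adjusted p = 0.0246) for Homo against WT and -0.11 ± 0.08 for Het against WT (adjusted p = 0.998). Leaving out 1 library at a time moved the adjusted p for Homo between 0.0172 and 0.131. This count covers the whole gene, and single exons were not examined. Library totals ran from 18573739 to 28431875 counts in Homo, 22833853 to 26245475 in Het and 25238140 to 40925973 in WT. Totals were lower in Het than in WT (p = 0.0286, exact permutation test, two-sided, n = 4 and 6), while Homo against WT gave p = 0.114 in the same exact test. All 9 hepatocyte markers were measured in every library, and of 8 adipocyte markers 2 passed the filter, Car3 and Adrb3. The 8 summed to 1189 to 1894 CPM in Homo, 895 to 2293 CPM in Het and 1332 to 2382 CPM in WT, nearly all of it Car3, which mouse hepatocytes also express. Of the defining genes, Retn was at 0 in every library, Adipoq, Lep, Plin1 and Ucp1 had at most 0.119 CPM in any, and Cfd had at most 0.322 CPM, in WT 2. In whole liver, fewer cells of a type and less RNA per cell cannot be told apart.

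No lipogenic or droplet gene passed the test between genotypes. In edgeR's quasi-likelihood test adjusted by Benjamini-Hochberg over all 16201 genes, 0 of the 34 measured members passed an adjusted p of 0.05 for Homo against WT, where 0.222% of all genes did. The count was also 0 for Het against WT (0.0556% of all genes), for Homo against Het (0.0309%) and for a trend over WT, Het and Homo (0.185%). DESeq2 called 0 members in the same 4 comparisons, against 0.377%, 0.198%, 0.0988% and 0.333% of all genes. At an unadjusted p under 0.05 there was 1 member for Homo against WT (4.73% of all genes), 1 for Het against WT (4.67%), 2 for Homo against Het (5.1%) and 1 for the trend (4.72%). In no member did all livers of a genotype lie apart from those of another, while 1.15% of all genes did so between Homo and WT, 1.2% between Het and WT and 2.94% between Homo and Het. For 23 of 34 members the 95% interval of the Homo against WT change lay within 1.5-fold either way (59.8% of all genes), and for 15 of 34 that of Het against WT did (59.8%). Between Homo and Het the interval of 16 of 34 did (55.7%). The change was above 0 for 21 of 34 members in Homo against WT (50.6% of all genes), for 12 in Het against WT (50%) and for 23 in Homo against Het (50.5%). For the remaining members the interval takes in changes beyond that size.

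**Figure D1:**
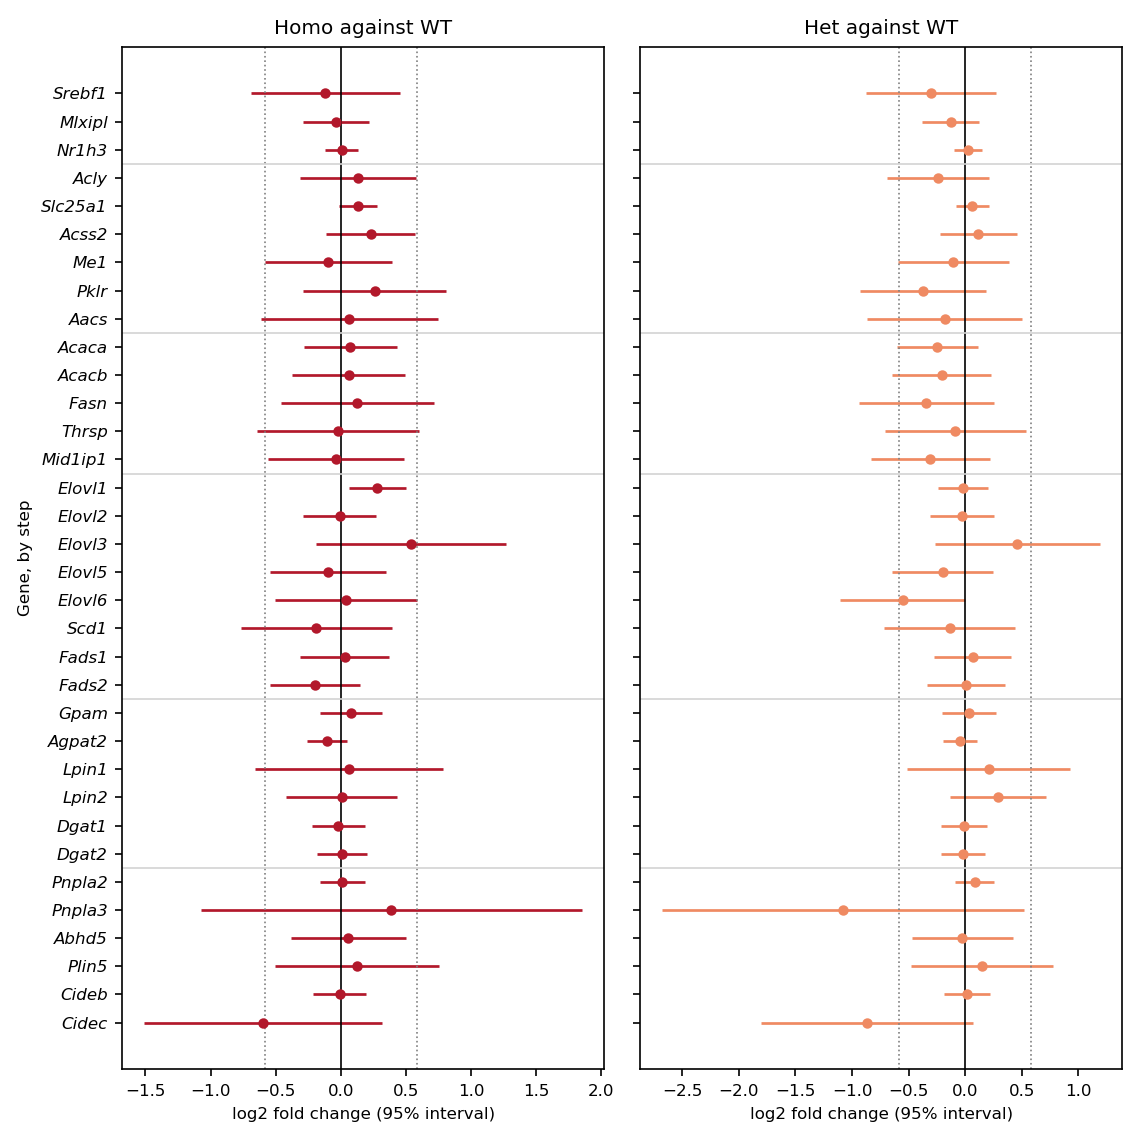
Log2 fold change (x axis, point) with its 95% interval (line) of the 34 measured genes, in Homo against WT on the left and Het against WT on the right, from edgeR's quasi-likelihood fit. Dotted lines mark 1.5-fold either way and grey lines part the steps; the intervals of Elovl1 in Homo and Elovl6 in Het end short of 0, and neither gene passed adjustment over all genes (adjusted p = 0.976 and 0.998).

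Among the regulators, Srebf1 had 377, 157, 319 and 303 CPM in the Homo livers, 325, 185, 277 and 234 CPM in the Het livers, and 188 to 430 CPM with a median of 349 in the WT livers. Low livers occurred in every genotype, namely Homo 2, Het 2, WT 5 and WT 6. The log2 fold change was -0.12 ± 0.27 for Homo against WT and -0.30 ± 0.27 for Het against WT (edgeR adjusted p = 0.998 each). Mlxipl had 383, 336, 385 and 381 CPM in the Homo livers, 375, 307, 343 and 370 CPM in the Het livers and a median of 346 CPM in the WT livers, of which WT 1 stood at 525 CPM and WT 4 at 335 CPM. Mlxipl was thus far steadier than Srebf1, and its groups overlapped. Nr1h3 was the steadiest of the 34 members, at 51.4 to 59.1 CPM in Homo, 52.5 to 59.5 CPM in Het and 53 to 60.5 CPM in WT. The fold of Nr1h3 was 1 with a 95% interval of 0.92 to 1.1 in Homo against WT, and 1.02 with an interval of 0.931 to 1.11 in Het against WT.

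Carbon for fat reaches the cytosol through glycolysis and citrate. Acly had 520, 203, 247 and 299 CPM in the Homo livers, 306, 231, 189 and 250 CPM in the Het livers and 249 to 331 CPM (median 288) in the WT livers. Homo 1 stood above all other livers and Het 3 below them. The fold was 1.1 (95% interval 0.806 to 1.49) for Homo against WT and 0.844 (0.618 to 1.15) for Het against WT. Pklr, the liver pyruvate kinase at the end of glycolysis and a classic target of ChREBP, had 718, 275, 458 and 318 CPM in the Homo livers, 357, 195, 195 and 394 CPM in the Het livers and 285 to 429 CPM (median 369) in the WT livers. Homo 1 was again the highest, and Het 2 and Het 3 were the lowest of all 14. Its log2 fold change was 0.26 ± 0.26 for Homo against WT, -0.37 ± 0.26 for Het against WT and 0.63 for Homo against Het (unadjusted p = 0.0415, edgeR adjusted p = 0.958). Exons of Pklr share 22% of their bases with Hcn3 and the use of strand is not stated, so some of its reads could belong to that neighbour.

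Slc25a1, the citrate carrier, had the smallest p of this step in Homo against WT. It had 156, 150, 160 and 153 CPM in the Homo livers, 152, 140, 153 and 146 CPM in the Het livers and 128 to 164 CPM (median 139) in the WT livers. The Homo livers sat in the upper part of the WT range without leaving it. That is a fold of 1.09, with a 95% interval from 0.989 to 1.21 (edgeR adjusted p = 0.998). Acss2, which makes acetyl-CoA from acetate, averaged 123 ± 32.2, 114 ± 16.5 and 105 ± 17 CPM (SD, n = 4, 4 and 6) in Homo, Het and WT. Me1, the malic enzyme that supplies NADPH, averaged 130 ± 42.8, 129 ± 49.1 and 139 ± 27.4 CPM, and Aacs, which activates acetoacetate in the cytosol, 95.7 ± 49.4, 80.6 ± 30.3 and 91.4 ± 32.2 CPM in the same order. The median log2 fold change of the 6 genes was 0.13 in Homo against WT, with 5 above 0, and -0.14 in Het against WT, with 2 above 0. Over all genes tested the medians were 0.00 in both. The Homo median of this step turned to -0.15 without Homo 1.

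Fasn had 1985, 578, 1045 and 1377 CPM in the Homo livers, 1033, 797, 583 and 1189 CPM in the Het livers and 843 to 1415 CPM (median 1121) in the WT livers. The highest and the lowest of the 14 livers were both Homo, and Het 3 lay beside the lowest. The log2 fold change was 0.13 ± 0.28 for Homo against WT and -0.34 ± 0.28 for Het against WT (edgeR adjusted p = 0.998 each). Without Homo 1 the Homo value was -0.19, and without Homo 2 it was 0.36, so single livers set its direction. Acaca had 399, 205, 222 and 248 CPM in the Homo livers, 248, 195, 163 and 253 CPM in the Het livers and 234 to 281 CPM (median 255) in the WT livers. The 6 WT livers were close together, Homo 1 lay above all of them, and Homo 2, Homo 3, Het 2 and Het 3 lay below. Its fold was 1.05 (95% interval 0.822 to 1.35) for Homo against WT and 0.842 (0.657 to 1.08) for Het against WT. Acacb, the isoform tied to the control of fat oxidation at the mitochondrion, ran from 94.1 to 178 CPM in Homo, 95 to 157 CPM in Het and 101 to 190 CPM in WT.

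Thrsp (Spot 14) and Mid1ip1 are small partner proteins, of which Mid1ip1 promotes the assembly of active acetyl-CoA carboxylase. Thrsp had 1265, 351, 847 and 1215 CPM in the Homo livers, 631, 709, 986 and 1178 CPM in the Het livers and 689 to 1196 CPM (median 959) in the WT livers, so that Homo 2 alone lay well below the others. Mid1ip1 had 95.7, 41.1, 62.5 and 69.4 CPM in the Homo livers, 78.3, 41.6, 38.9 and 63.8 CPM in the Het livers and 46 to 86.4 CPM (median 70.4) in the WT livers. Its exons share 25.5% of their bases with Gm14493. The median log2 fold change of the 5 synthesis genes was 0.06 for Homo against WT, with 3 above 0. For Het against WT it was -0.25, with 0 of 5 above 0 against 50% of all genes, and none of the 5 had an unadjusted p under 0.05. Het and Homo share the WT livers as control in these 2 comparisons.

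**Figure D2:**
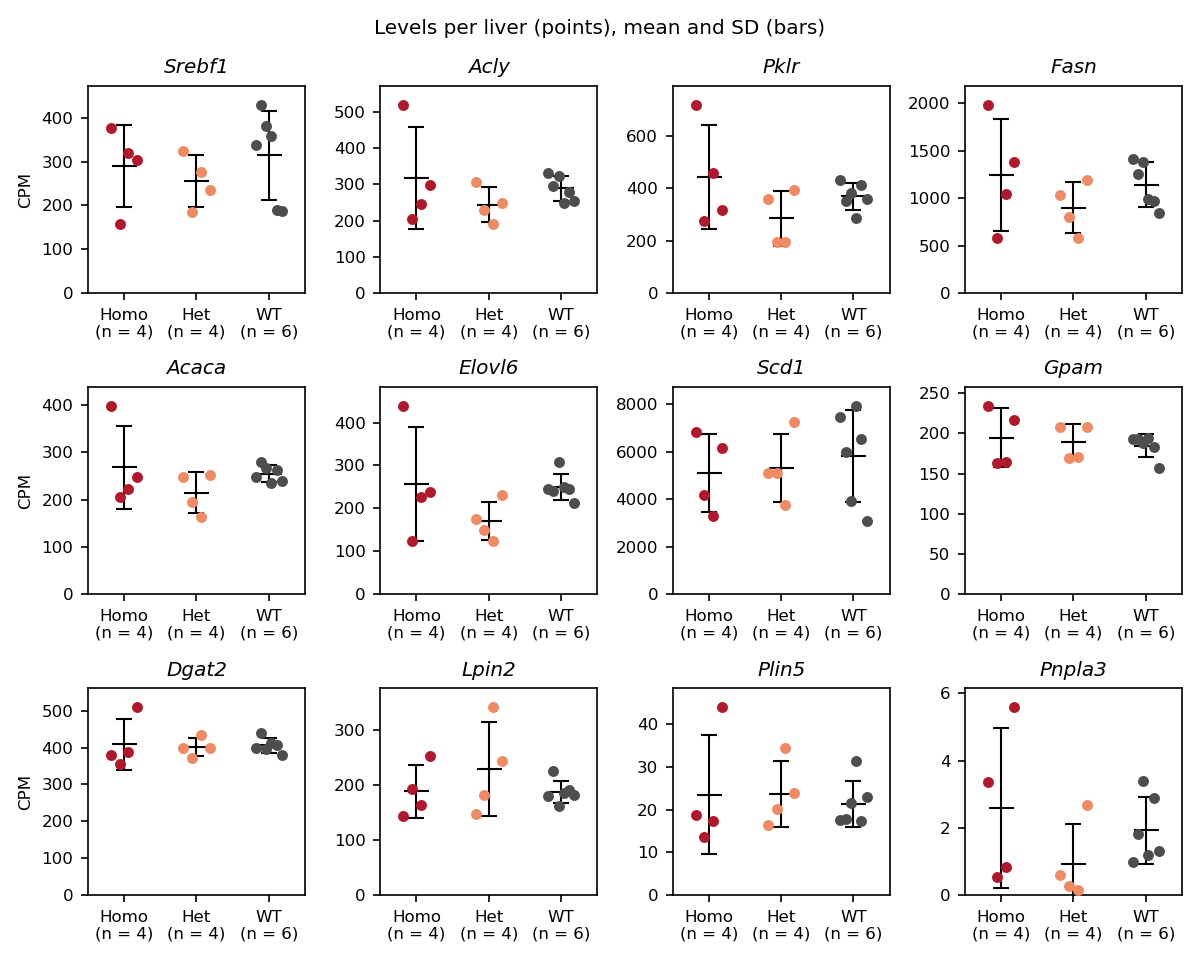
CPM per liver (y axis, linear from 0) of 12 of the genes in Homo, Het and WT, with the mean (wide tick) and SD (bar) over livers; the lower SD bar of Pnpla3 in Het runs below the axis. Groups overlap in each of the 12 panels, and for Acly, Pklr, Fasn, Acaca and Elovl6 the Homo points spread wider than the WT points, from 578 to 1985 CPM against 843 to 1415 CPM in the case of Fasn.

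Of the elongases, Elovl6 had 439, 123, 227 and 239 CPM in the Homo livers, 175, 150, 125 and 230 CPM in the Het livers and 212 to 307 CPM (median 244) in the WT livers. Of the 4 Het livers, 3 lay below every WT liver, and Het 4 lay inside the WT range, as did Homo 3 and Homo 4. The Het against WT fold was 0.681 (95% interval 0.464 to 0.999; unadjusted p = 0.0497, edgeR adjusted p = 0.998), and the Homo against WT fold was 1.03 (0.706 to 1.5). Elovl1, which lengthens very long saturated chains for sphingolipids and is no part of the lipogenic chain proper, had 41.4, 41, 45.4 and 32.1 CPM in the Homo livers, 36.3, 33.2, 26.7 and 33.9 CPM in the Het livers and 30 to 38.2 CPM (median 32.4) in the WT livers. Homo 1, 2 and 3 lay above the other 11 livers and Homo 4 among them. Its fold was 1.21 (95% interval 1.04 to 1.41; unadjusted p = 0.0157, edgeR adjusted p = 0.976) for Homo against WT and 0.987 (0.847 to 1.15) for Het against WT. Homo against Het gave a log2 fold change of 0.30 for Elovl1 (unadjusted p = 0.0191, adjusted p = 0.916), and the trend over WT, Het and Homo gave 0.13 ± 0.05 per step (unadjusted p = 0.0252, adjusted p = 0.998).

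Scd1, stearoyl-CoA desaturase, was the most abundant member per length of exon, at 1043, 1082 and 1188 CPM per kilobase in Homo, Het and WT, ahead of Thrsp (420, 400.2 and 425.5) and Fads2 (178.1, 205 and 204). It had 6819, 4168, 3276 and 6142 CPM in the Homo livers, 5082, 5103, 3758 and 7229 CPM in the Het livers and 3074 to 7927 CPM (median 6248) in the WT livers. Each genotype held livers near the top and near the bottom of this range. The fold of Scd1 was 0.877 (95% interval 0.587 to 1.31) for Homo against WT and 0.91 (0.61 to 1.36) for Het against WT. Fads1 and Fads2, the delta-5 and delta-6 desaturases of polyunsaturated chains, averaged 429 ± 85.7, 440 ± 67.3 and 420 ± 95.1 CPM and 587 ± 107, 676 ± 110 and 673 ± 155 CPM (SD, n = 4, 4 and 6) in Homo, Het and WT. Elovl2 and Elovl5, the elongases of the polyunsaturated chains, averaged 406 ± 42, 400 ± 26.6 and 408 ± 89.5 CPM and 223 ± 40.5, 208 ± 41.5 and 239 ± 72.2 CPM in the same order. WT 4 was the highest of the 14 livers for Elovl2, Elovl5, Scd1, Fads1 and Fads2. Elovl3, known in mouse liver for its daily rhythm, had 19.6, 63.5, 31 and 19.3 CPM in the Homo livers, 36, 27.9, 41.2 and 21.1 CPM in the Het livers and 13.2 to 35.6 CPM (median 23.2) in the WT livers. Homo 2 and Het 3, low for Fasn, were the highest for Elovl3. The median log2 fold change of the 8 genes was 0.01 in Homo against WT and -0.02 in Het against WT.

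The acyltransferases of triglyceride synthesis were steadier than the fatty acid enzymes. Gpam, the mitochondrial acyltransferase that opens the path, had 234, 163, 165 and 217 CPM in the Homo livers, 208, 170, 171 and 209 CPM in the Het livers and 157 to 194 CPM (median 191) in the WT livers. Homo 1, Homo 4, Het 1 and Het 4 stood above the WT range. The fold was 1.05 (95% interval 0.893 to 1.24) in Homo and 1.02 (0.869 to 1.21) in Het, each against WT. Agpat2, which adds the next acyl chain, had 97.6, 87.9, 103 and 97.3 CPM in the Homo livers, 96.4, 102, 94.6 and 109 CPM in the Het livers and 92.6 to 116 CPM (median 104) in the WT livers. Groups overlapped throughout, and the fold was 0.929 (0.837 to 1.03) in Homo and 0.968 (0.872 to 1.07) in Het. Dgat2, which makes triglyceride from newly made chains, had 381, 355, 387 and 511 CPM in the Homo livers, 398, 373, 434 and 400 CPM in the Het livers and 380 to 441 CPM (median 404) in the WT livers, with Homo 4 alone above the rest. Dgat1 averaged 10.5 ± 0.42, 10.6 ± 1.57 and 10.6 ± 0.769 CPM in Homo, Het and WT.

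The lipins, which turn phosphatidate into diacylglycerol, were not steady. Lpin1, which fasting and glucocorticoids are known to raise in liver, had 521, 384, 387 and 845 CPM in the Homo livers, 247, 526, 858 and 724 CPM in the Het livers and 276 to 868 CPM (median 475) in the WT livers. The highest liver of each genotype reached nearly the same level. Lpin2 had 144, 192, 163 and 253 CPM in the Homo livers, 147, 182, 341 and 242 CPM in the Het livers and 162 to 224 CPM (median 183) in the WT livers, with Het 3 the highest. Its log2 fold change was 0.01 ± 0.20 for Homo against WT and 0.29 ± 0.20 for Het against WT (edgeR adjusted p = 0.998 each). Lpin2 and Plin5 lie on chromosome 17, as Pkd1 does. The median over the 6 triglyceride genes was 0.01 in both comparisons.

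Among the droplet genes, Plin5, which ties droplets to mitochondria, had 18.9, 13.7, 17.2 and 44.1 CPM in the Homo livers, 16.5, 20.1, 34.4 and 24 CPM in the Het livers and 17.3 to 31.3 CPM (median 19.7) in the WT livers. Homo 4, Het 3 and WT 4 stood highest, 1 in each genotype. The fold was 1.09 (95% interval 0.706 to 1.68) in Homo and 1.11 (0.719 to 1.71) in Het, each against WT. Pnpla3, tied to fatty liver in people and raised by feeding in mouse liver, was low and the most variable member. It had 3.37, 0.531, 0.831 and 5.6 CPM in the Homo livers, 0.584, 0.273, 0.159 and 2.67 CPM in the Het livers and 0.973 to 3.41 CPM (median 1.57) in the WT livers. Of the Het livers, 3 lay below all WT livers and Het 4 within them, and Homo livers lay on either side. Its log2 fold change was 0.39 ± 0.69 for Homo against WT and -1.08 ± 0.75 for Het against WT (edgeR adjusted p = 0.998 each). With 1 library left out at a time, the Homo value ran from -0.29 without Homo 4 to 0.73 without Homo 2. The Het value ran from -2.51 without Het 4 to -0.72 without Het 3.

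Pnpla2 averaged 44.9 ± 2.66, 47.1 ± 6.1 and 44.5 ± 2.81 CPM and Abhd5 24.4 ± 3.67, 23.1 ± 5.73 and 23.5 ± 6.92 CPM (SD, n = 4, 4 and 6) in Homo, Het and WT. Cideb, the CIDE protein of normal liver that aids VLDL loading, averaged 113 ± 13.1, 115 ± 3.68 and 114 ± 14.9 CPM. Its exons share 76.3% of their bases with Nop9, so its level is uncertain. Cidec and Cidea, which fuse droplets in fat and are known to rise in fatty mouse liver, were close to nothing. Cidec had 0.297, 0.531, 0.642 and 0.274 CPM in the Homo livers, 0.125, 0.318, 0.199 and 0.819 CPM in the Het livers and 0.56 to 0.862 CPM in the WT livers. Most Homo and Het livers lay below the WT livers, while Homo 3 and Het 4 lay among them, on 3 to 27 counts a library. The fold was 0.662 (95% interval 0.352 to 1.24) for Homo against WT and 0.549 (0.287 to 1.05) for Het against WT. The Het log2 fold change of -0.87 became -1.63 without Het 4 and -0.58 without Het 1. Cidea, the member left untested, had 1, 4, 0 and 1 counts in the Homo livers, 2 counts in Het 1 and 0 in the other Het livers, and 2 counts in WT 4 and 0 in the other WT livers.

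Livers of the same genotype differed more for these genes than for most. Within genotypes the SD of log2(CPM + 1) had a median of 0.349 over the 34 members, against 0.187 over all genes tested and 0.134 over the 7344 genes of at least 10 CPM. It was largest for Pnpla3 (0.73), Lpin1 (0.62) and Elovl3 (0.59) and smallest for Nr1h3 (0.074), Slc25a1 (0.094) and Agpat2 (0.099). Homo 1 held the highest of the 14 values for 10 of 34 members, Homo 2 the lowest for 8 and Het 3 the lowest for 10. The same counts were not made over all genes, so they cannot be read as particular to these members. The mean position of the 5 synthesis genes, each set against its own mean over 14 livers, was 0.64, -0.62, -0.12 and 0.31 on the log2 scale in the Homo livers, -0.08, -0.36, -0.46 and 0.20 in the Het livers, and between -0.12 and 0.31 in the WT livers. That of the 6 carbon supply genes was 0.69, -0.25, -0.13 and 0.06 in the Homo livers, -0.05, -0.26, -0.42 and 0.25 in the Het livers, and between -0.08 and 0.10 in the WT livers. The step mean of the WT livers thus lay inside a narrow band for carbon supply. Homo 1 and Het 4 stood out from it upward and Homo 2, Homo 3, Het 2 and Het 3 downward. Single genes of the step were less steady over the WT livers than their mean. Aacs ran from -0.53 to 0.69 and Me1 from -0.19 to 0.48 there, while Slc25a1 ran from -0.19 to 0.16.

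**Figure D3:**
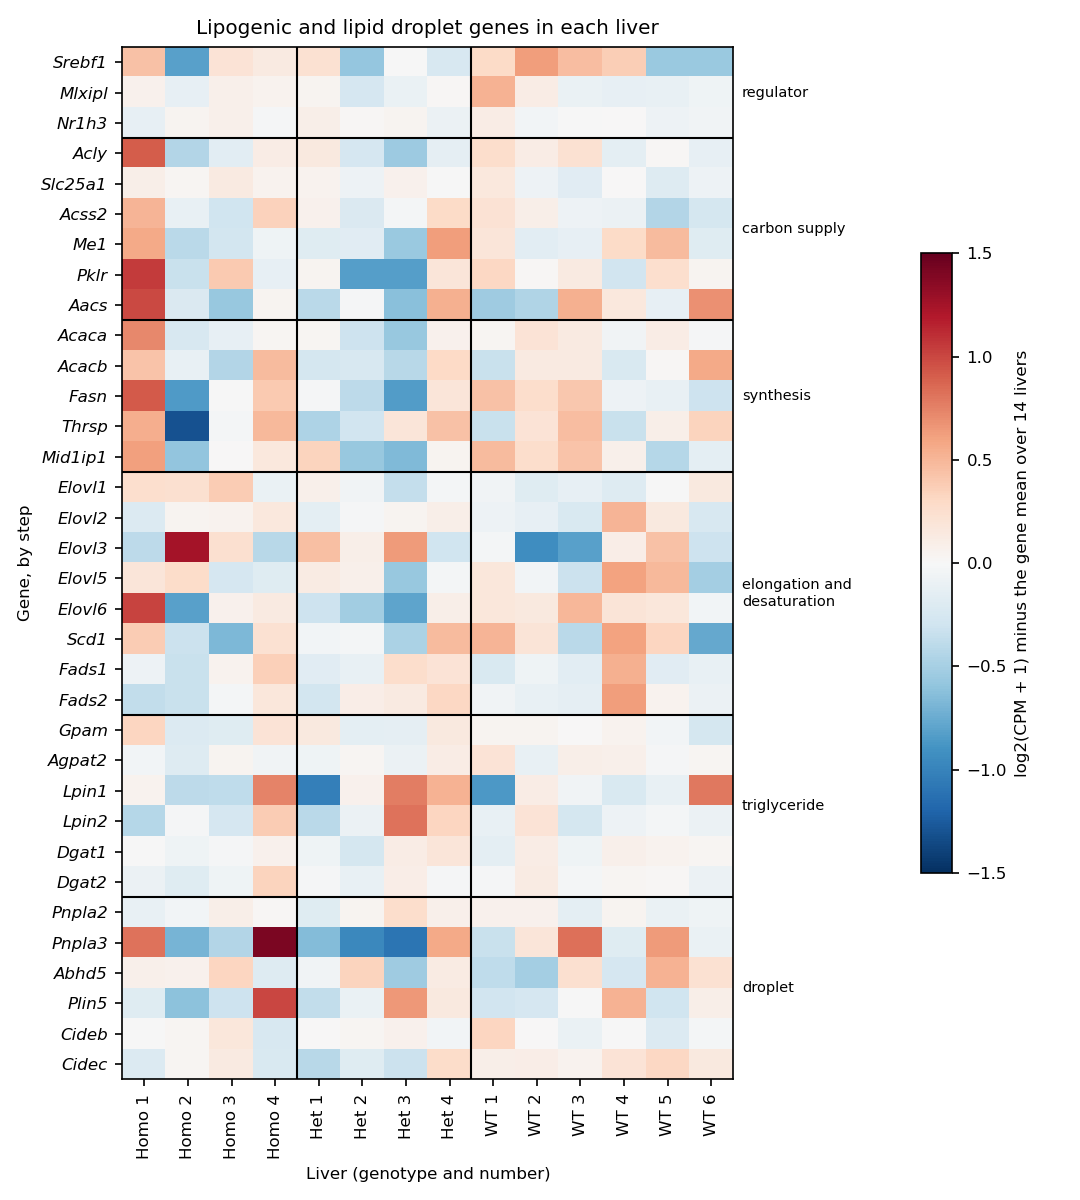
Log2(CPM + 1) of each measured gene minus its mean over 14 livers (colour, red above and blue below), with genes down the page by step and livers across as Homo, Het and WT. Homo 1 is red and Homo 2 and Het 3 are blue for most carbon supply and synthesis genes, while Nr1h3, Slc25a1, Agpat2, Dgat1 and Pnpla2 are pale in all livers.

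The SD over Homo livers was larger than that over WT livers for 23 of 34 members, against 46.4% of all genes, with a median ratio of 1.39 against 0.948 over all genes. For Het it was larger for 20 of 34, against 45.7%, with a median ratio of 1.25 against 0.948. All 5 synthesis genes spread wider in Homo than in WT, with a median ratio of 2.44, and 5 of the 6 carbon supply genes did, with 1.59. It was 4 of 6 for triglyceride (median ratio 1.63), 3 of 6 for droplet (1.43) and 2 of 3 for the regulators (1.05). For elongation and desaturation it was 4 of 8, with a median ratio of 0.955. The ratio of Homo to WT was 3.38 for Acly, 4.28 for Acaca, 4.34 for Elovl6 and 2.44 for Fasn, and 0.324 for Slc25a1 and 0.903 for Scd1. This comparison was chosen after the values were seen, rests on 4 livers against 6 and carries no test. Homo 1 and Homo 2 lie at opposite ends of it.

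**Figure D4:**
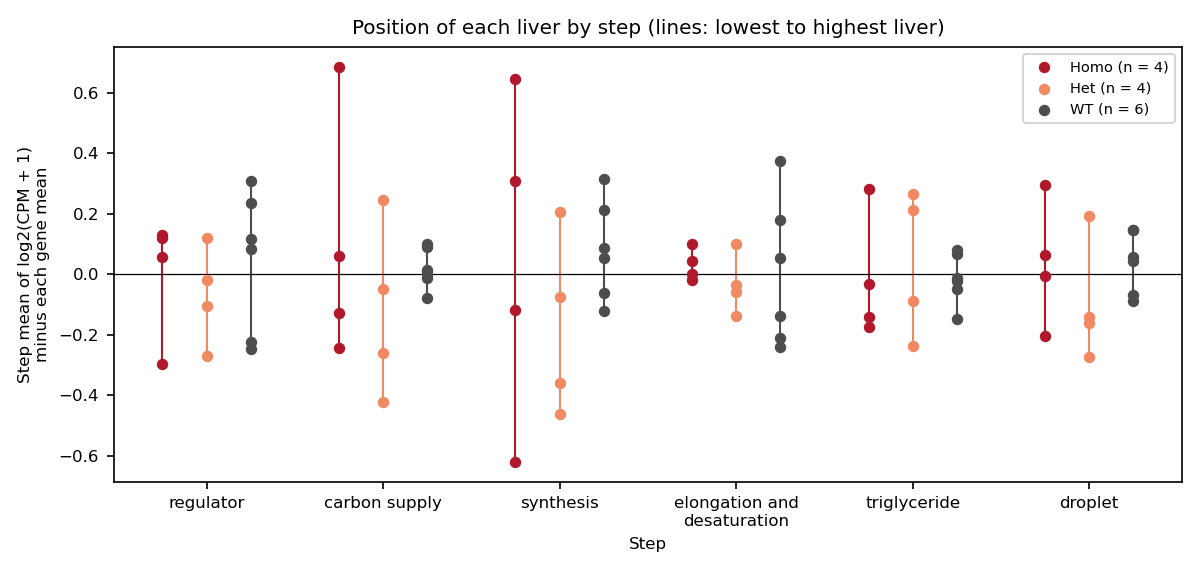
Mean log2(CPM + 1) of the measured genes of each step minus each gene's mean over 14 livers (y axis), with 1 point a liver and lines from the lowest to the highest liver of Homo, Het and WT. For synthesis the Homo livers run from -0.62 to 0.64 and the WT livers from -0.12 to 0.31, while for elongation and desaturation the WT livers run widest, from -0.24 to 0.37.

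Hormone and clock genes also differed between the livers at these ends. Pck1, the gluconeogenic gene that fasting raises, had 294.7 CPM in Homo 1, the lowest of 14, and 2290 CPM in Het 3, the highest. Igfbp1, which insulin represses, had 56.2 CPM in Het 3, against 2.46 to 29.2 CPM in the other livers. In Homo 2 the clock gene Nr1d1 had 110 CPM and the insulin receptor substrate Irs2 36.8 CPM, the highest of 14 for each. In Homo 4, the highest for Plin5, Dgat2 and Pnpla3, the glucocorticoid target Tat had 2475 CPM, the highest of 14, and Nr1d1 12.4 CPM, the lowest. These genes were named after their values were seen. Of 11 measured feeding and fasting genes and 11 clock genes, edgeR called 0 in each of Homo and Het against WT, as did DESeq2. At an unadjusted p under 0.05 the counts were 1 and 0 in each comparison, against 4.73% of all genes for Homo and 4.67% for Het. The labels give no feeding state or hour, and the part of either in the spread was not tested.

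Across the 14 livers, Srebf1 was set against each of the other 33 measured members (Pearson's r of log2(CPM + 1), permutation test, two-sided, Benjamini-Hochberg over the 33 pairs). By Pearson's r only Mid1ip1 passed, with r = 0.79 (permutation p = 0.0011, adjusted p = 0.035) and Spearman's rho = 0.81 (permutation p = 0.00062, adjusted p = 0.02), a size of r that 0.228% of all genes reach with Srebf1. Without Homo 2 and Het 2, the livers farthest from the Srebf1 median, r was 0.68 and 0 pairs passed. Leaving out a single library also left 0 pairs in 11 of 14 cases (all but Het 3, Het 4 and WT 6), so the call does not withstand the loss of most single livers. Centred on genotype means, r was 0.78 and 0 pairs passed. Within the 6 WT livers r was 0.85. Fasn gave r = 0.67 with Srebf1 (permutation p = 0.008, adjusted p = 0.13) and passed by Spearman's rho (0.76, permutation p = 0.0025, adjusted p = 0.041). Acly gave r = 0.57 and Elovl6 0.59.

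Fasn was taken as the anchor after the values were seen, because it ran with more of the list than Srebf1 did. That choice favours a high count of pairs, and no p-value or adjustment given for Fasn covers it. Of its 33 pairs, 10 passed at an adjusted p of 0.05, and 8 did with adjustment over the 99 pairs computed for Srebf1, Fasn and Lpin1. The weakest of the 10 had r = 0.63, a size that 1.73% of all 16200 other genes reach with Fasn. With Elovl6, r was 0.92 and rho 0.76 (permutation p = 1e-05, the smallest these permutations can give, and 0.0024). Acly gave r = 0.91 (permutation p = 1e-05) and rho = 0.86 (p = 0.00017), Mid1ip1 gave 0.90 (p = 1e-05) and 0.92 (p = 1e-05), and Acaca gave 0.87 (p = 4e-05) and 0.73 (p = 0.0043). Gpam, Pklr, Pnpla3, Srebf1 and Acss2 followed, with r from 0.63 to 0.78. Elovl3 alone ran the other way, with r = -0.73 (permutation p = 0.0028) and rho = -0.71 (p = 0.0053).

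Without Homo 1 and Homo 2, the livers farthest from the Fasn median, r was 0.88 with Acly, 0.87 with Mid1ip1, 0.83 with Elovl6 and 0.83 with Acaca, and these 4 still passed, while the other 6 of the 10 did not. Centred on genotype means, r was 0.90, 0.89, 0.92 and 0.85 for the same 4 genes, and 6 of the 10 passed. Within the 6 WT livers r was 0.93, 0.87, 0.66 and 0.51. Scd1 (r = 0.51), Thrsp (0.57) and Me1 (0.62) did not pass, and Slc25a1 (0.11), Dgat2 (0.26) and Lpin1 (-0.13) stood apart from Fasn. Libraries share 1 scaling for all genes, so part of any correlation can come from it, and r is across livers of mixed genotype. The 4 promoters printed above belong to Fasn and to the 3 genes of highest r, and they share no motif of the 4 searched, since that of Elovl6 held none.

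**Figure D5:**
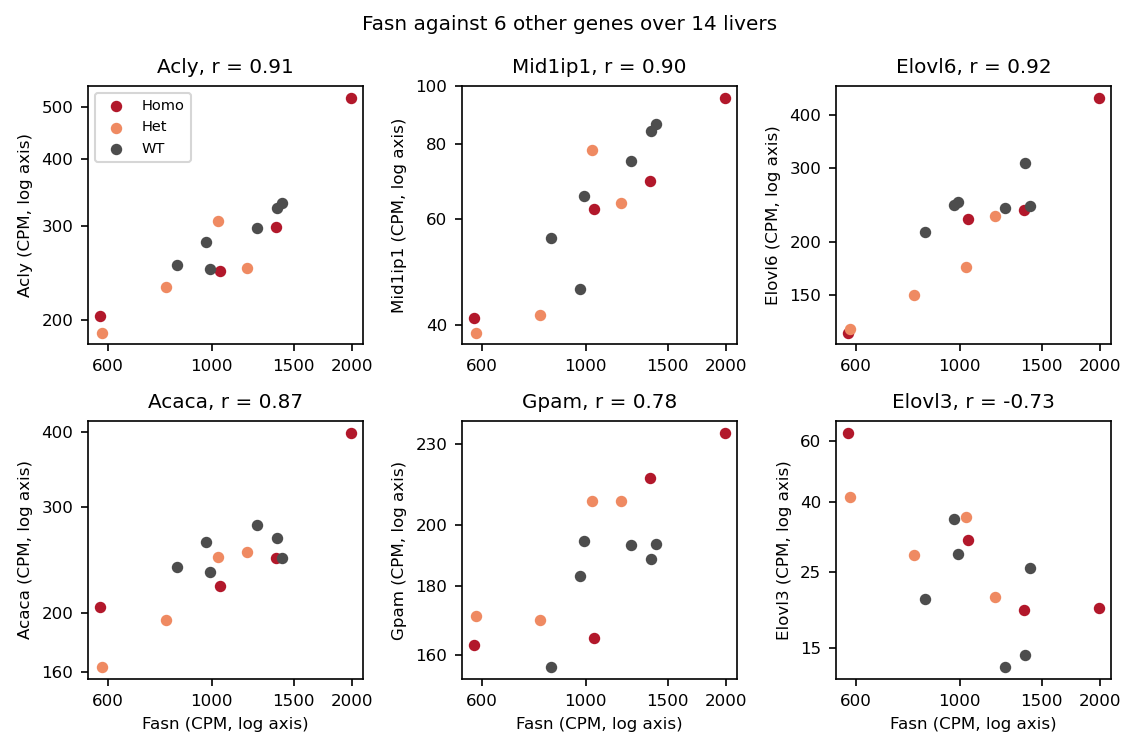
CPM of 6 genes (y axes, log scale) against CPM of Fasn (x axis, log scale), 1 point a liver, in Homo, Het and WT. Over all 14 livers together Acly, Mid1ip1, Elovl6 and Acaca climb with Fasn (r from 0.87 to 0.92), Gpam climbs less closely (r = 0.78), and Elovl3 falls (r = -0.73). Within the 6 WT livers r was 0.93 with Acly, 0.87 with Mid1ip1, 0.66 with Elovl6 and 0.51 with Acaca.

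Lpin1, also chosen after the values were seen, passed with 0 of 33 members at an adjusted p of 0.05, and 6 had an unadjusted permutation p under 0.05. The size of r was at least 0.5 for 7 of the 33, against 13.1% of all 16200 other genes. The closest were Plin5 (r = 0.68, permutation p = 0.0084, adjusted p = 0.17; rho = 0.76, p = 0.0028) and Lpin2 (r = 0.66, p = 0.01; rho = 0.53, p = 0.057). Within the 6 WT livers r was 0.22 with Plin5 and 0.13 with Lpin2. Homo 4 and Het 3 were high for all 3 genes.

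Other genes of the same pathways were taken from 5 lists, of which 60 genes were measured. EdgeR called 0 of the 60 between any pair of genotypes, and DESeq2 called 0 as well. At an unadjusted p under 0.05 there were 8 between Homo and WT (4.73% of all genes), 7 between Het and WT (4.67%) and 3 between Homo and Het (5.1%). The smallest p was that of Gpat3, a glycerol-phosphate acyltransferase of the endoplasmic reticulum. It had 5.74, 0.613, 7.67 and 4.89 CPM in the Homo livers, 5.47, 6.32, 8.6 and 8.79 CPM in the Het livers and 4.07, 1, 1.78, 0.614, 0.734 and 0.694 CPM in the WT livers. All Het livers lay above all WT livers, and Homo 2 lay with the lowest WT livers. The log2 fold change was 2.29 ± 0.56 for Het against WT (unadjusted p = 0.000991, edgeR adjusted p = 0.434) and 1.66 ± 0.56 for Homo against WT (unadjusted p = 0.00994, adjusted p = 0.892). With no filter on low counts the adjusted p for Het was 0.0342, so its call depends on that filter. Exons of Gpat3 share 37.4% of their bases with 4930458D05Rik and Gm42987, so its level is uncertain.

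Hsd17b13, a droplet enzyme of hepatocytes, had 135, 219, 70.4 and 169 CPM in the Homo livers, 151, 156, 166 and 62.9 CPM in the Het livers and 191 to 263 CPM (median 242) in the WT livers. Het livers lay below all WT livers and Homo livers below all but WT 1, which Homo 2 exceeded. The log2 fold change was -0.67 ± 0.28 in Homo and -0.82 ± 0.28 in Het against WT (unadjusted p = 0.0291 and 0.0105, edgeR adjusted p = 0.998 and 0.977). G0s2, the inhibitor of Pnpla2, had 23.3, 33.9, 29.4 and 33.9 CPM in the Homo livers, 11.2, 14.1, 6.33 and 29.4 CPM in the Het livers and 23.5 to 43.2 CPM in the WT livers. Of the Het livers, 3 lay below every other liver and Het 4 did not. The log2 fold change for Het against WT was -0.94 ± 0.31 (unadjusted p = 0.00906, edgeR adjusted p = 0.977). With 1 library left out at a time, it ran from -1.47 without Het 4 to -0.68 without Het 3. The edgeR adjusted p over these runs lay between 0.0575, without Het 4, and 0.9996.

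Scap, the escort of the SREBPs, averaged 124 ± 8.39, 114 ± 10.9 and 107 ± 9.18 CPM in Homo, Het and WT (Homo against WT fold 1.16, 95% interval 1.03 to 1.31, edgeR adjusted p = 0.976). Pgd, of the NADPH-making pentose phosphate path, averaged 38.4 ± 4.65, 34.8 ± 5.65 and 32.3 ± 2.12 CPM, and each Homo liver lay above each WT liver, by a margin of 35.5 against 35.4 CPM at the nearest (adjusted p = 0.998). Plin2, the main droplet coat of liver, averaged 89.6 ± 18.5, 91.4 ± 15.4 and 97.5 ± 10.3 CPM, with folds against WT of 0.919 (95% interval 0.753 to 1.12) in Homo and 0.938 (0.768 to 1.14) in Het. Insig1, which holds the SREBPs back, averaged 291 ± 127, 257 ± 24.4 and 255 ± 58.5 CPM, and Scd2, the minor liver isoform of the desaturase, 7.08 ± 1.26, 8.53 ± 1.1 and 7.66 ± 1.53 CPM (SD, n = 4, 4 and 6). The labels number each sample and call it a littermate, without naming the litter. The fits therefore took each liver as independent, and likeness within a litter was not modelled. These p-values set group differences against the spread between the sampled livers alone.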

How the data were processed

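RNA was sequenced from 14 livers (Homo 4, Het 4, WT 6). Per the labels' protocols, extraction used Trizol with RNeasy columns, and the library kit was the NuGen Ovation for mouse. The deposited table holds estimated counts per Ensembl gene, for which the submitters' processing notes list STAR and Salmon and the build GRCm39. Not given in the sources used here are versions, annotation release and strand setting. Between 6.36% and 8.59% of values per library were not whole (tolerance 0.01), and all were rounded.

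Genes passed filterByExpr (count minimum 10, total minimum 15). TMM scaling and a quasi-likelihood fit over all 14 libraries were done with edgeR 4.0.16 in R 4.3.3, and p-values were adjusted by Benjamini-Hochberg over all genes tested. DESeq2 1.42.0, other scalings and filters, fits of only the groups compared, a replicate block and leaving out each library were alternatives. SDs and correlations used log2(CPM + 1), and correlations used 100000 permutations. The scripts were tested on simulated data. The closest pair of libraries, Homo 4 and WT 4, had a chi-square of 26.3 per degree of freedom, far above sampling noise, and each library was kept as a replicate. Equal replicate numbers were not taken as pairs in the main fit.

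The members and gene lists were chosen with earlier results of these data known. Values per library are given for Srebf1, Mlxipl, Acly, Acaca, Fasn, Scd1, Elovl6, Gpam, Dgat2, Pnpla3, Plin5, Lpin2, Cidea, Cidec and the gene of smallest p in each step, and for Gpat3, Hsd17b13 and G0s2 of the other pathway genes of smallest p; Scap, Pgd, Plin2, Scd2 and Insig1 are given as group means. An item covered by the rule is not reported here. Further genes were given in full after their values were seen. Promoters came from RefSeq (GRCm38.p6) by symbol, and exon lengths, chromosomes and overlaps from GENCODE on GRCm38, a build other than the authors'; no coordinates were converted.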

Additional observations from a re-analysis of the deposited data

Results flagged for a closer look

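In 8 of 102 groups of 4 or 6 livers, a single liver stood far from the others of its genotype by Dixon's gap over range. Chance gives this in about 1 in 20 groups if values are normally distributed, which was not tested for CPM. The genes are also not independent of each other. The same count was not made over all genes, so it cannot be read as an excess or as particular to these members. Mlxipl had 335.6 CPM in Homo 2, against 381 to 385 CPM in the other Homo livers, and 524.6 CPM in WT 1, against 335 to 396 CPM in the other WT livers. Fads1 and Fads2 both stood out in WT 4, at 612 CPM against 362 to 402 CPM and at 985 CPM against 581 to 663 CPM in the other WT livers. Gpam had 157 CPM in WT 6, against 183 to 194 CPM in the other WT livers. Pnpla3 had 2.67 CPM in Het 4, against 0.159 to 0.584 CPM in the other Het livers. Plin5 had 44.1 CPM in Homo 4, against 13.7 to 18.9 CPM in the other Homo livers. Cideb had 142 CPM in WT 1, against 98.5 to 114 CPM in the other WT livers, and reads of Nop9 may be among its counts.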

How the results depend on the processing

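The count of members called was 0 in each comparison under every alternative run, and 0 members were called after leaving out any library. Numbers of all genes called moved: DESeq2 gave 61, 32, 16 and 54 for Homo against WT, Het against WT, Homo against Het and the trend, no filter on low counts gave 23 for Het against WT, and a fit of only the groups compared gave 2 for Homo against Het. Between samples of equal replicate number, 3 of 12 correlations of deviations were over 0.1, from -0.076 to 0.24. Samples of unequal number were not compared in this way, so whether the numbers pair the samples was not settled. The replicate block gave 20, 2 and 11 calls over all genes for Homo against WT, Homo against Het and the trend. It turned the sign of these uncalled log2 fold changes: for Homo against WT, Acly -0.0054, Fasn -0.13, Elovl6 -0.13, Gpam -0.0043, Dgat2 -0.027, Pnpla3 -0.16, Lpin2 -0.031 and Insig1 -0.035, and for Het against WT, Gpam -0.037, Elovl1 0.053 and Insig1 -0.17. Pkd1 for Homo against WT had an adjusted p of 0.0663 with the block and 0.0576 with library totals alone, which also gave -0.020 for Insig1 in Het and a carbon supply median of 0.25 in Homo against Het. Correlations of Srebf1 that passed were 0 without the 2 farthest libraries and 0 centred on genotype; those of Fasn were 4 and 6. Leaving out 1 library at a time gave, for Homo against WT, 23 to 40 genes called, Srebf1 -0.28 to 0.082, Mlxipl -0.072 to 0.074, Acly -0.21 to 0.29, Acaca -0.18 to 0.18, Fasn -0.19 to 0.36, Elovl6 -0.35 to 0.27, Gpam -0.029 to 0.15, Dgat2 -0.12 to 0.067, Pnpla3 -0.29 to 0.73, Plin5 -0.36 to 0.31, Lpin2 -0.17 to 0.11, Pklr -0.078 to 0.43, G0s2 -0.026 to 0.18 and Insig1 -0.16 to 0.30, with step medians from -0.15 to 0.24 (carbon supply), -0.19 to 0.18 (synthesis), -0.11 to 0.052 (triglyceride) and -0.14 to 0.053 (droplet). For Het against WT it gave Gpam -0.017 to 0.085, Dgat2 -0.058 to 0.016, Plin5 -0.085 to 0.29, Elovl1 -0.079 to 0.066, Plin2 -0.19 to 0.0042, Insig1 -0.070 to 0.11, Pnpla3 -2.51 to -0.72, Cidec -1.63 to -0.58, G0s2 -1.47 to -0.68, Pklr -0.57 to -0.23, Acly -0.38 to -0.14, Lpin2 0.027 to 0.45 and a carbon supply median of -0.33 to 0.0051. For Homo against Het the carbon supply and synthesis medians ran from 0.00047 to 0.35 and 0.067 to 0.43, and the trend called 19 to 33 genes. Members whose groups did not overlap numbered 0 to 1, 0 to 3 and 0 to 1. Smaller groups separate more easily, and the share over all genes was not taken with a library left out. These counts therefore cannot be read as particular to the members. Members that passed with Srebf1 numbered 0 to 2, and with Lpin1 0 to 1. Members with a larger SD than in WT numbered 20 to 24 in Homo and 16 to 24 in Het. The cause of these moves was not tested. Pnpla3, Cidec and Cidea rest on few counts, which limits what can be said of them.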

Other observations

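Pathway genes outside the named set gave the following values, all with an edgeR adjusted p above 0.05. Insig2 and Srebf2 had log2 fold changes of 0.47 and 0.21 in Het against WT (unadjusted p = 0.0265 and 0.0314) and of -0.05 and 0.00 in Homo against WT. Mpc1, of the mitochondrial pyruvate carrier, was at -0.15 in Het against WT (unadjusted p = 0.0242), with every Het liver below every WT liver, and at -0.12 in Homo against WT (unadjusted p = 0.0588). Mgll, the monoglyceride lipase, was at -0.28 and Bscl2 (seipin) at 0.17 in Homo against WT (unadjusted p = 0.0308 and 0.0262). The 6 Kupffer cell markers summed to 185 to 191 CPM in Homo, 147 to 186 CPM in Het and 150 to 174 CPM in WT. EdgeR and DESeq2 called 0 of them in Homo or Het against WT. At an unadjusted p under 0.05, 3 were higher in Homo and 0 in Het, where 4.73% and 4.67% of all genes passed in either direction. Other marker sums in Homo against WT were 20.5 to 66.7 against 25.5 to 36.1 CPM for cholangiocytes. They were 207 to 265 against 194 to 225 CPM for sinusoidal endothelium and 272 to 314 against 232 to 334 CPM for stellate cells.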
